A study of Gallus gallus with 10 samples.

Results

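In the kidneys of broiler chickens fed 3 concentrations of calcium (Ca), 50 genes were selected as those whose RNA level covaried most closely with LECT2, the gene of leukocyte cell-derived chemotaxin 2, over 10 RNA-seq libraries. They were the 50 with the highest Pearson correlation (r) of log2(CPM + 0.5) with LECT2 among 11546 ranked genes, out of 17108 genes counted. CPM is the count of a gene per 1000000 counts of its library, and a gene was ranked when its mean CPM was at least 2. LECT2 itself and the defensin genes GAL1 and GAL2 were left out of the ranking. Because all 10 libraries served to choose the genes, their correlations, levels and differences between diets are given below as a description, and no test of them supports the grouping. The 50 genes are called the members.

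The birds were commercial broilers given mash with 0.8% Ca (3 birds, replicates 1, 3 and 4), 1.0% Ca (4 birds, replicates 1 to 4) or 1.2% Ca (3 birds, replicates 1 to 3) from the first day after hatch to the end of the starter period. All diets shared the same non-phytate phosphorus concentration and added phytase, and the groups were labelled by Ca. The study also reported lower body weight and feed intake with more Ca, and it sampled birds near the mean weight of their group. Each bird gave 1 library of RNA from a sample of kidney tissue. Between 6176553 and 7857813 fragments were counted per library, so that 1 CPM stood for 6.18 to 7.86 fragments. Sex was not given in the sources used here.

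RefSeq lists MIM1 as a synonym of LECT2, and in chickens it is known as a protein stored in the granules of myeloid precursor cells and as a product of a classical target gene of the transcription factor Myb. In mammals the protein is made mostly by the liver and attracts leukocytes. Heterophils are the avian counterpart of neutrophils, and since they lack myeloperoxidase, much of their killing of microbes rests on small cationic peptides packed in their granules, the beta-defensins and the cathelicidins. In a kidney, RNA of such genes can come from blood cells in the vessels, from cells in the tissue between tubules, or from the organ's own cells, and in whole-tissue RNA more cells of a type and more RNA per cell cannot be told apart.

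LECT2 lies on chromosome 13 at 14532811 to 14537759 of Galgal4, on the forward strand. The study measured it by quantitative PCR as well, and its primers are shown because they mark the transcript to which every member was compared.
LECT2 forward: gatacggctgcggcaattac
LECT2 reverse: gcccttgtgcttttctccttt

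LECT2 stood at 137, 137 and 62.1 CPM in the birds at 0.8% Ca. At 1.0% Ca its values were 188, 105, 100.3 and 80.4 CPM. The birds at 1.2% Ca had 461, 181 and 276 CPM, a range over all birds of 7.42-fold. Replicate 1 at 1.2% Ca was the highest of the 10 birds and replicate 4 at 0.8% Ca the lowest, and the 1.2% Ca birds lay above all 0.8% Ca birds but not above all 1.0% Ca birds. The neighbouring genes on chromosome 13 did not follow LECT2, since r was 0.318 for the gene before it and -0.332 for the gene after it. GAL1 and GAL2, which the rule leaves out, had r of 0.976 and 0.987 with LECT2 and ranged from 15.4 to 103 CPM and from 12.1 to 98.8 CPM.

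**Figure D1:**
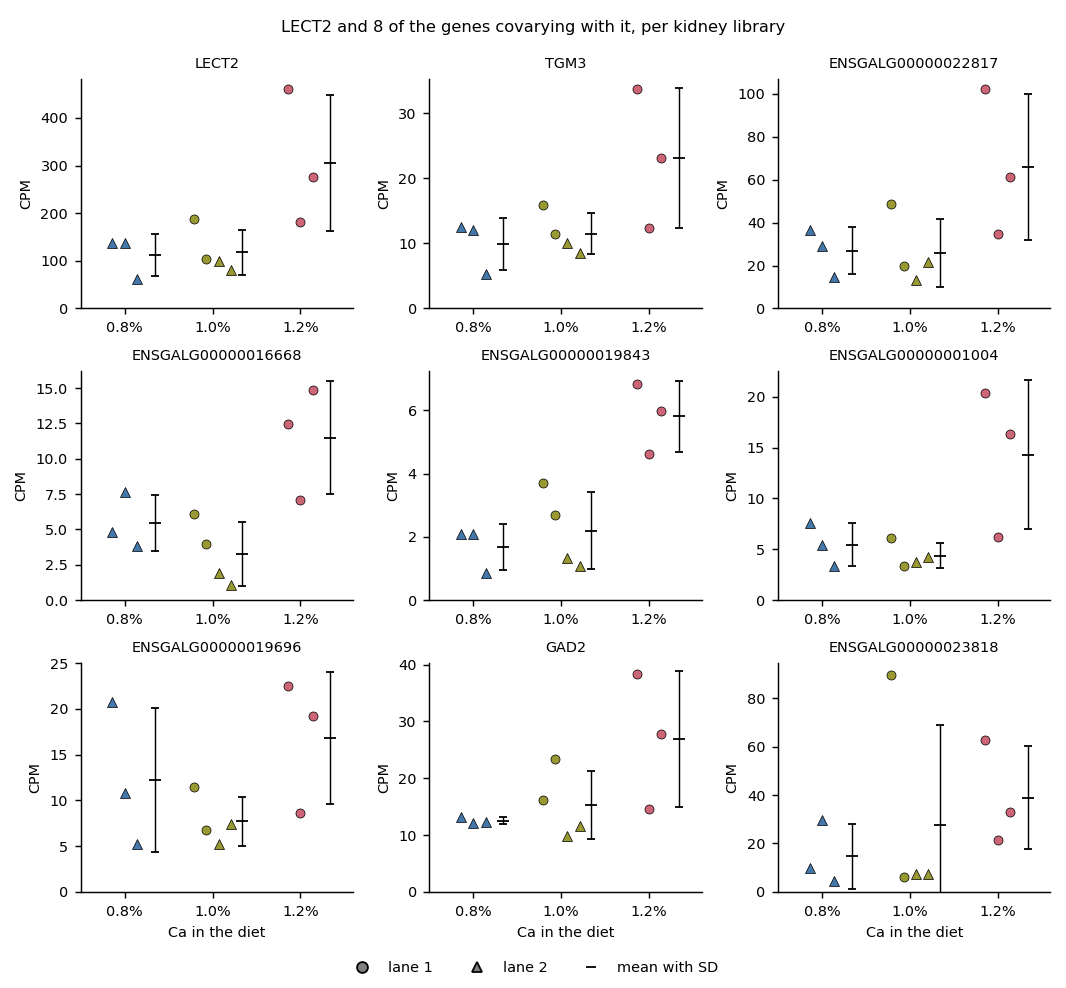
LECT2 and 8 members in each kidney library. The vertical axes give CPM from 0, the horizontal axes the Ca concentration of the diet, each point is 1 bird with its shape giving the sequencing lane, and the bars give the mean and SD of 3, 4 and 3 birds, with the lower bar of ENSGALG00000023818 at 1.0% Ca ending at the axis. LECT2 was highest at 461 CPM in 1 bird at 1.2% Ca, which is also the highest bird for TGM3, ENSGALG00000022817, ENSGALG00000019843, ENSGALG00000001004, ENSGALG00000019696 and GAD2.

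The closest member was TGM3, on chromosome 20, which encodes a transglutaminase, an enzyme that cross-links proteins. Its r with LECT2 was 0.976, and its rank correlation (Spearman's rho) was 0.964. TGM3 had 12.5, 12.01 and 5.37 CPM at 0.8% Ca, 15.9, 11.5, 10.0 and 8.58 CPM at 1.0% Ca, and 33.8, 12.4 and 23.2 CPM at 1.2% Ca. As for LECT2, the highest bird was replicate 1 at 1.2% Ca and the lowest was replicate 4 at 0.8% Ca. The CPM of TGM3 stayed between 6.87% and 10.9% of that of LECT2 in the 10 birds. After the mean of each diet was subtracted, r was 0.975. The genes on either side of TGM3 on chromosome 20 had r of -0.145 and 0.0561.

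On chromosome 3, 3 members lay in the beta-defensin cluster, within 6 consecutive annotated genes that also hold GAL1 and GAL2. Beta-defensins are short peptides that disrupt microbial membranes. ENSGALG00000022817, at 107069509 to 107071114, was the second by r, at 0.945. It had 36.4, 29.3 and 14.8 CPM at 0.8% Ca, 48.8, 19.7, 13.4 and 21.7 CPM at 1.0% Ca, and 102, 34.7 and 61.5 CPM at 1.2% Ca. The groups overlapped, since replicate 2 at 1.2% Ca lay below replicate 1 at 0.8% Ca and below replicate 1 at 1.0% Ca. ENSGALG00000019843, at 107097384 to 107099252, was the third by r, at 0.943, and had 2.10, 2.10 and 0.847 CPM at 0.8% Ca, 3.70, 2.69, 1.34 and 1.07 CPM at 1.0% Ca, and 6.84, 4.62 and 5.98 CPM at 1.2% Ca. All 3 birds at 1.2% Ca were above the other 7 birds, on counts of 6 to 51 fragments per library. ENSGALG00000016668, 3015 bases after the end of ENSGALG00000022817, had 4.86, 7.66 and 3.81 CPM at 0.8% Ca, 6.11, 3.96, 1.94 and 1.07 CPM at 1.0% Ca, and 12.5, 7.08 and 14.9 CPM at 1.2% Ca, with r = 0.818. Here replicate 3, not replicate 1, was the highest bird at 1.2% Ca, and the lowest bird was replicate 4 at 1.0% Ca.

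Of the 15 annotated genes examined in and around this cluster, 6 reached a mean of 2 CPM. These were the 3 members, GAL1, GAL2 and ENSGALG00000016673 at the edge of the cluster, which had r of 0.0189. The other 9 had means under 1 CPM. ENSGALG00000022817 and ENSGALG00000016668 both lie in an interval that the study named GAL7, and the name could not be tied to either. The summed CPM of the 3 members, GAL1 and GAL2 was 115, 113 and 47.0 at 0.8% Ca, 156, 69.2, 66.2 and 64.2 at 1.0% Ca, and 323, 146 and 233 at 1.2% Ca. Beta-defensin genes are related in sequence, and how fragments were divided among them could not be examined from the counts.

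A member on chromosome 2 lay in an interval that the study named for the cathelicidins CATHL1 and CATHL2. Cathelicidins are another family of antimicrobial peptides of heterophil granules. This member, ENSGALG00000019696 at 3982185 to 3983950, had r of 0.816. It measured 20.7, 10.8 and 5.23 CPM at 0.8% Ca, 11.4, 6.79, 5.22 and 7.37 CPM at 1.0% Ca, and 22.5, 8.67 and 19.2 CPM at 1.2% Ca. Replicate 1 at 0.8% Ca was second among all birds for this gene, and the CPM relative to LECT2 ranged from 4.79% to 15.1%. Its neighbour ENSGALG00000027973 was the first gene outside the list, with r of 0.752 and values from 3.62 to 20.4 CPM. Another gene of this locus, ENSGALG00000027175, had r of 0.679 and was named here after its value was seen.

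**Figure D2:**
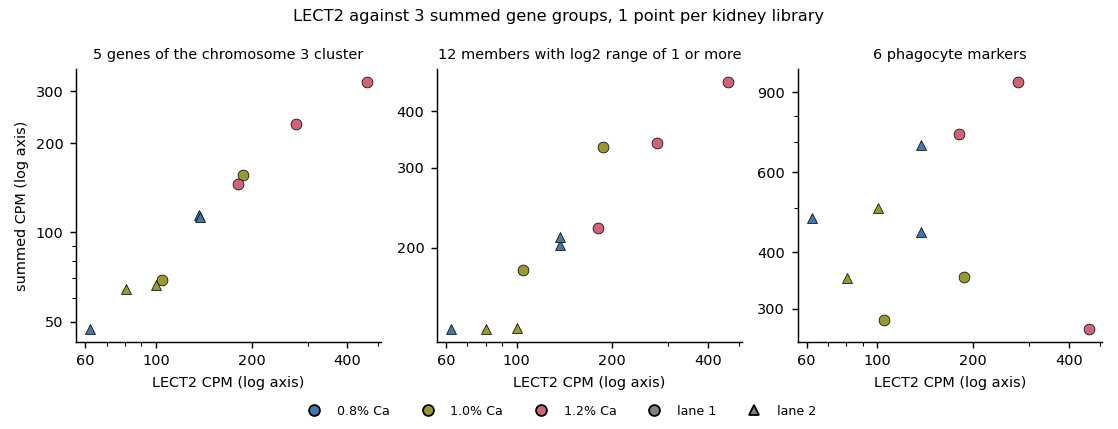
Summed CPM of the 5 genes of the chromosome 3 cluster with mean CPM of 2 or more (3 members, GAL1 and GAL2), of the 12 members with the widest range, and of 6 phagocyte markers, each against the CPM of LECT2 on log axes. Each point is 1 kidney library, colour gives the Ca concentration and shape the sequencing lane. The cluster sum runs with LECT2 between 47.0 and 323 CPM. The members in the first 2 sums were chosen for following LECT2, so this was set in part by the rule. The phagocyte markers were not chosen by r with LECT2, and the bird with the highest LECT2 has their lowest sum, 270 CPM.

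GAD2 and TGM3 were the only members with a gene name in the sources used here. Both names came by locus from the study's list of genes that Cuffdiff called different between diets. GAD2, on chromosome 2, encodes glutamate decarboxylase, which makes the transmitter gamma-aminobutyric acid. GAD2 had 13.3, 12.2 and 12.3 CPM at 0.8% Ca, 16.3, 23.3, 9.85 and 11.7 CPM at 1.0% Ca, and 38.4, 14.6 and 27.9 CPM at 1.2% Ca. Its r with LECT2 was 0.786, but 0.566 after diet means were subtracted and 0.597 without replicate 1 at 1.2% Ca. The 0.8% Ca birds differed little in GAD2 although their LECT2 values spanned 62.1 to 137 CPM. Another member, ENSGALG00000007559, lay 148046 bases from GAD2.

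Among the members known only by identifier, ENSGALG00000001004 on chromosome 19 had r = 0.925. It had 7.61, 5.41 and 3.39 CPM at 0.8% Ca, 6.11, 3.39, 3.73 and 4.29 CPM at 1.0% Ca, and 20.4, 6.21 and 16.3 CPM at 1.2% Ca. Replicates 1 and 3 at 1.2% Ca stood above the other 8 birds. ENSGALG00000023818 on chromosome 27 had the widest range of all members, 20.4-fold. It had 10.0, 29.9 and 4.38 CPM at 0.8% Ca, 89.5, 6.08, 7.31 and 7.51 CPM at 1.0% Ca, and 62.5, 21.4 and 32.8 CPM at 1.2% Ca. Its highest bird was replicate 1 at 1.0% Ca, far above the other birds on that diet, and r was 0.836. The 5 widest ranges belonged to ENSGALG00000023818, ENSGALG00000016668, ENSGALG00000022817, TGM3 and ENSGALG00000019843, which spanned 2.45 to 4.20 on the log2 scale.

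The members differed strongly in how far they moved with LECT2. The slope of a member's log2(CPM + 0.5) on that of LECT2 is 1 when both change by the same factor. It was 0.5 or more in 8 members and under 0.2 in 27, with a median of 0.177. Of all ranked genes, 0.277% had a slope of 0.5 or more and 96.1% a slope under 0.2. A gene's slope rises with its r for a given spread, so the counts of 8 and 27 were set in part by the rule. The 8 were TGM3 (0.807), ENSGALG00000022817 (1.01), ENSGALG00000019843 (0.936), ENSGALG00000001004 (0.916), ENSGALG00000023818 (1.43), ENSGALG00000016668 (0.966), ENSGALG00000019696 (0.725) and GAD2 (0.567). Among these 8, 4 are genes of the defensin cluster or the cathelicidin interval. By the difference between the highest and the lowest bird, 12 members (24.0%) spanned 1 or more on the log2 scale, against 27.2% of ranked genes, and the other 38 spanned 1.11-fold to 1.98-fold with a median of 1.39-fold. The split at 1 was set after the values were seen.

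**Figure D3:**
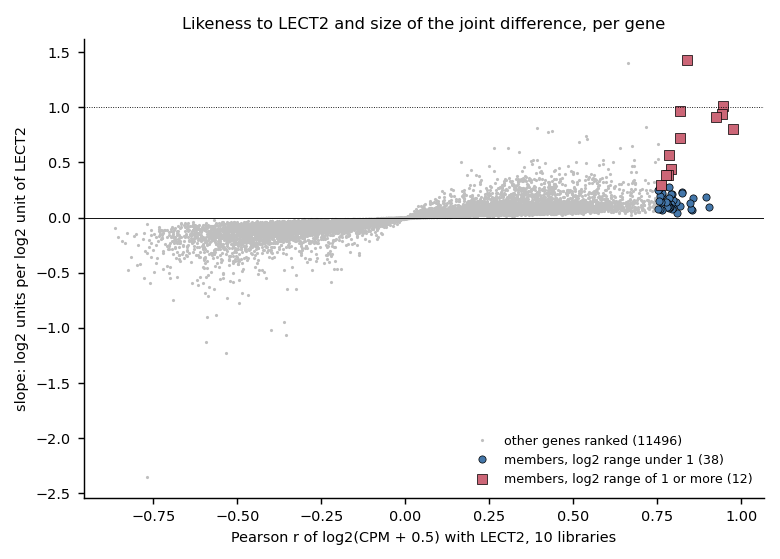
Pearson r with LECT2 over 10 libraries (horizontal axis) and slope on LECT2 in log2 units per log2 unit (vertical axis) for every ranked gene. Squares are the 12 members with a log2 range of 1 or more, circles the other 38 members, and grey points the remaining ranked genes, the dotted line marking a slope of 1. Members share a high r by construction, but their slopes run between 0.0444 and 1.43.

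The narrow members reached a high r with small differences. ENSGALG00000011280 on chromosome 1, the fifth by r at 0.902, had 168, 158 and 158 CPM at 0.8% Ca, 171, 158, 157 and 157 CPM at 1.0% Ca, and 186, 180.0 and 180.1 CPM at 1.2% Ca. Its values lay within 1.18-fold of each other, the 3 birds at 1.2% Ca were the highest, and 3 of the 4 birds at 1.0% Ca lay within 0.5 CPM of each other. The next by r were ENSGALG00000005953 (r = 0.893, 18.1 to 27.6 CPM), ENSGALG00000009859 (0.854, 52.7 to 78.9 CPM), ENSGALG00000009566 (0.853, 116 to 136 CPM), ENSGALG00000016052 (0.849, 62.6 to 75.5 CPM) and ENSGALG00000010622 (0.845, 46.6 to 62.0 CPM). For ENSGALG00000010622 rho was 0.661, as replicate 1 at 1.2% Ca stood apart at 62.0 CPM and the 7 birds at 0.8% and 1.0% Ca lay between 46.6 and 49.4 CPM.

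Counting error bears on some members. The spread of a gene's counts over the 10 libraries was divided by the spread that counting alone gives. This ratio was under 2 in 12 of the 50 members (24.0%), against 17.0% of the ranked genes. It was at or under 1 in 2 members (4.0%), close to the 3.48% of ranked genes. ENSGALG00000015641, 1 of these and on the Z chromosome, ranged only from 74.2 to 82.0 CPM, a 1.11-fold range with a ratio of 0.622, and was singled out after its value was seen. For the wide members the ratio was between 1.45 and 199.

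The 5 members that received the most fragments were narrow members. ENSGALG00000011351 on chromosome 5 had 2675, 2887 and 2393 CPM at 0.8% Ca, 3733, 2946, 2533.2 and 2533.5 CPM at 1.0% Ca, and 3873, 2645 and 2969.5 CPM at 1.2% Ca. ENSGALG00000006512 on chromosome 24 had 1748, 2379 and 1694 CPM at 0.8% Ca, 2909, 1946, 1684 and 1831 CPM at 1.0% Ca, and 2919, 1921 and 2344 CPM at 1.2% Ca. In both, replicate 1 at 1.0% Ca was close to replicate 1 at 1.2% Ca and the diets overlapped. The others were ENSGALG00000008600 (618 to 761 CPM), ENSGALG00000011387 (281 to 415 CPM) and ENSGALG00000011280.

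Single birds carried much of the pattern. Replicate 1 at 1.2% Ca was the highest bird for 33 members, against 14.2% of ranked genes. A further 8 members were highest in replicate 3 of that diet (9.02% of ranked genes) and 5 in its replicate 2 (8.34%), and 4 were highest in the first bird at 1.0% Ca (7.14%). Replicate 4 at 0.8% Ca was lowest for 19 members, against 5.70% of ranked genes. At 1.0% Ca, replicate 3 was lowest for 13 members and replicate 4 for 12, against 14.8% and 9.53% of ranked genes. When each library was left out in turn, the smallest r of a member ranged down to 0.550, and for 34 members it was reached without replicate 1 at 1.2% Ca. The birds farthest from the median of LECT2 were that bird and replicate 4 at 0.8% Ca, and without both the median r of the members over 8 libraries was 0.709, with 27 members above 0.7 and 5 under 0.5. Of all ranked genes, 2.68% had r above 0.7 in those 8 libraries. TGM3 kept an r of 0.944, ENSGALG00000019843 of 0.925, ENSGALG00000011280 of 0.887 and ENSGALG00000022817 of 0.886. LECT2 was itself highest in replicate 1 at 1.2% Ca and lowest in replicate 4 at 0.8% Ca. The members were chosen for following LECT2, so the shares of members given here were set in part by the rule.

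**Figure D4:**
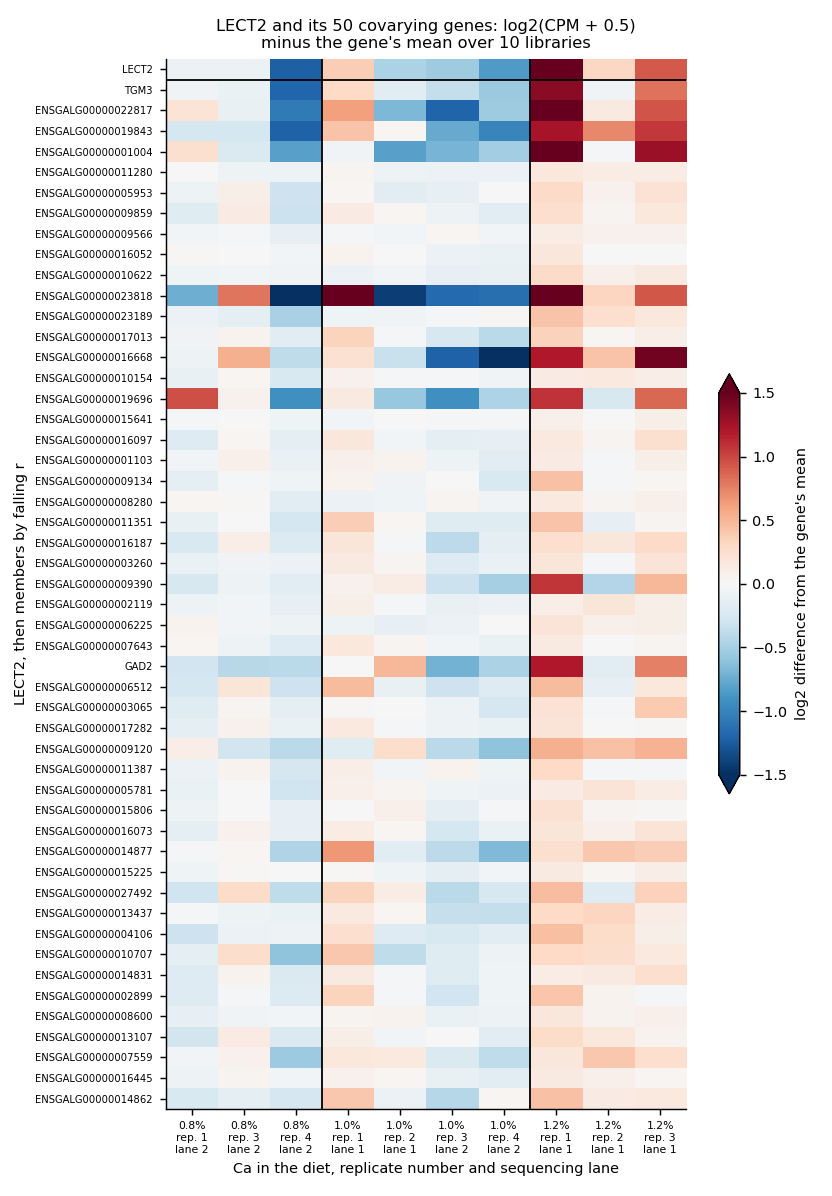
Log2(CPM + 0.5) of LECT2 and the 50 members minus the mean of each gene over 10 libraries. Rows are genes by falling r, columns are birds by Ca concentration with replicate number and sequencing lane, and the colour scale is cut at 1.5 in either direction. Replicate 1 at 1.2% Ca was the highest bird for 33 members and no member had its lowest bird at 1.2% Ca.

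Covariation was also present among birds on the same diet. After the mean of each diet was subtracted, r with LECT2 was above 0 for all 50 members, with a median of 0.647 and a range of 0.411 to 0.975. Of the ranked genes, 46.8% had such an r above 0. It exceeded 0.7 in 20 members, against 1.60% of ranked genes. ENSGALG00000011351 (0.910) and ENSGALG00000007643 (0.899, named after its value was seen) were closer to LECT2 within diets than over all birds (0.792 and 0.786), while ENSGALG00000009120 (0.411) had the lowest value. Members were correlated with each other too, with a median pairwise r of 0.712 over 1225 pairs. The same libraries chose the members for their r with LECT2, so all these values were set in part by the rule.

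The libraries were sequenced in 2 lanes by the study's run table and by the lane codes in the count table's header, although the methods describe 1 lane. Lane 1 held the 3 birds at 1.2% Ca and replicates 1 and 2 at 1.0% Ca, and lane 2 held the other 5, so lane and diet could be separated only through the birds at 1.0% Ca. With lane means subtracted, the median r of the members was 0.615, with a range of 0.445 to 0.956. Among the 4 birds at 1.0% Ca, LECT2 was higher in the lane 1 birds (188 and 105 CPM) than in the lane 2 birds (100.3 and 80.4 CPM). In this contrast on 1 diet, 45 of 50 members had a higher mean in lane 1, with a median log2 difference of 0.18, against 55.6% of ranked genes. As the members were chosen for following LECT2, the count of 45 was set in part by the rule. The part of lane in the members' covariation was not tested.

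**Figure D5:**
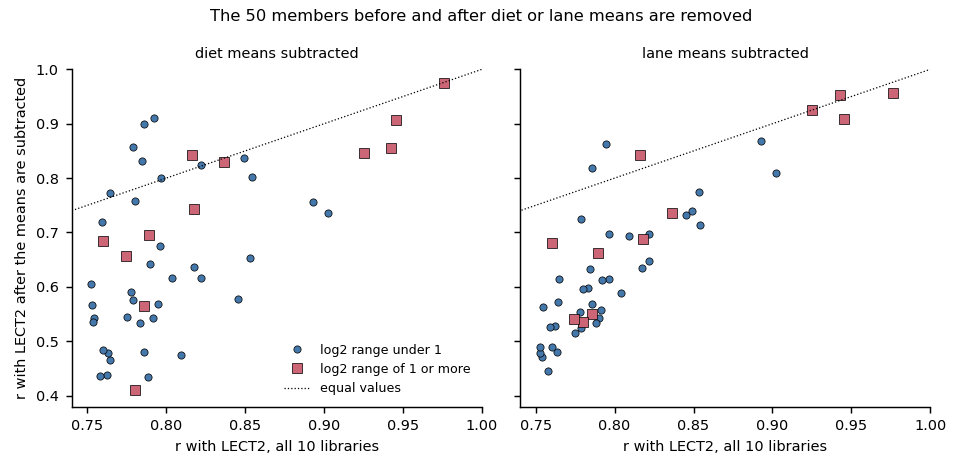
Pearson r with LECT2 over all 10 libraries (horizontal axes) and after the means of the 3 diets or of the 2 lanes were subtracted (vertical axes) for the 50 members. Squares are members with a log2 range of 1 or more, circles the others, and the dotted line marks equal values. All values stay above 0, with medians of 0.647 within diets and 0.615 within lanes, and TGM3 is at the upper right of both panels.

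The study asked which kidney genes respond to Ca intake, and the members' values by diet are set out here. The log2 change along Ca is scaled to the step between 0.8% and 1.2% Ca. In edgeR's quasi-likelihood test with Benjamini-Hochberg adjustment, 0 of 50 members passed an adjusted p of 0.1 for the slope along Ca, as did 0.0% of the 12187 genes tested. Without adjustment, 23 members had p under 0.05, all higher at higher Ca. Such a p with a higher value at higher Ca was held by 3.26% of the genes tested, but the rule chose genes that follow LECT2. The share of members was therefore set in part by the rule. The count of 23 was 0 with lane as a covariate, and leaving out single birds also lowered it. Among the 1.2% Ca birds it was 4 when replicate 1 was omitted and 10 when replicate 3 was, omitting replicate 2 at 1.0% Ca gave 14, and among the 0.8% Ca birds omitting replicate 1 gave 15 and replicate 4 gave 7. The median log2 change was 0.28 in the members, all 50 of them positive, and 0.008 in all genes tested. These values of the members were set in part by the rule as well. LECT2 itself had a log2 change of 1.46 ± 0.43 (SE) with an adjusted p of 0.440 by edgeR's quasi-likelihood test. The study did call LECT2 higher with more Ca, by edgeR's likelihood ratio test at a threshold of 0.1. Its second program, Cuffdiff, called LECT2 between 1.2% Ca and each of the other diets. The study also reported that its quantitative PCR followed the RNA-seq pattern. In the refit here the likelihood ratio test gave LECT2 an adjusted p of 0.147.

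The largest estimate among the members described was that of ENSGALG00000019843, a log2 change of 1.86 ± 0.48 (SE) with a quasi-likelihood adjusted p of 0.397. It was the 1 member called by edgeR's likelihood ratio test on the same model (adjusted p = 0.0810), which called 0.287% of genes. DESeq2 called 0 members and 0.46% of genes, but it gave this gene no adjusted p, so for it DESeq2 is neither a call nor a miss. TGM3 had a log2 change of 1.25 ± 0.40 (SE), ENSGALG00000022817 of 1.34 ± 0.52, ENSGALG00000001004 of 1.46 ± 0.51 and GAD2 of 1.12 ± 0.35, with edgeR quasi-likelihood adjusted p between 0.440 and 0.493. Without replicate 1 at 1.2% Ca the log2 changes were 0.82 for TGM3, 0.79 for ENSGALG00000022817, 0.98 for ENSGALG00000001004 and 0.75 for GAD2. With lane as a covariate the median was 0.11 in the members, 35 of 50 of them positive, and 0.012 in all genes tested. These values of the members were again set in part by the rule. The estimates with lane were 0.80 ± 0.77 (SE) for LECT2, 0.62 ± 0.73 for ENSGALG00000019843 and 0.73 ± 0.67 for TGM3. They were 0.45 ± 0.92 for ENSGALG00000022817, 1.26 ± 1.00 for ENSGALG00000001004 and 0.29 ± 0.52 for GAD2.

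Between 1.2% and 0.8% Ca, 27 members had every 1.2% Ca bird above every 0.8% Ca bird, against 6.62% of ranked genes. LECT2 averaged 306 ± 143 CPM at 1.2% Ca and 112 ± 43.3 CPM at 0.8% Ca (SD, n = 3 each). GAD2 averaged 26.9 ± 11.9 CPM at 1.2% Ca and 12.6 ± 0.610 CPM at 0.8% Ca (SD, n = 3 each). In edgeR's quasi-likelihood test 0 members and 0.0% of genes passed an adjusted p of 0.05, and 16 members had an unadjusted p under 0.05, against 3.0% of genes with a higher value at 1.2% Ca. As the members were chosen for following LECT2, the counts of 27 and 16 were set in part by the rule. The 16 became 4 when replicate 1 at 1.2% Ca was omitted, 5 when the omitted bird was replicate 4 at 0.8% Ca, and 0 with lane as a covariate. All 1.2% Ca birds were in lane 1 and all 0.8% Ca birds in lane 2, so lane and diet cannot be told apart here.

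Between 1.2% and 1.0% Ca, 18 members had every 1.2% Ca bird above every 1.0% Ca bird, against 3.03% of ranked genes. By the quasi-likelihood test 13 members had an unadjusted p under 0.05, all higher at 1.2% Ca, against 2.31% of genes with a higher value there. As the members were chosen for following LECT2, the counts of 18 and 13 were set in part by the rule. The 13 became 4 when replicate 1 at 1.2% Ca was omitted, and 7 and 6 when the omitted bird was replicate 3 or replicate 4 at 1.0% Ca. It rose to 18 without replicate 1 at 1.0% Ca, and the other omissions gave 9 to 11. With lane as a covariate it was 3. None of the members passed the adjusted threshold of 0.05 by edgeR's quasi-likelihood test (0.0% of genes). Within lane 1, where 3 birds at 1.2% Ca stood against 2 at 1.0% Ca, 45 members had the higher mean at 1.2% Ca, against 50.9% of ranked genes. The count of 45 was set in part by the rule as well, since these birds also served to choose the members. The median log2 difference was 0.11 in the members and 0.004 in the ranked genes, and LECT2 differed by 1.02.

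Between 1.0% and 0.8% Ca, 1 member had all 1.0% Ca birds above all 0.8% Ca birds, against 2.85% of ranked genes. The median log2 change was 0.07, or 0.004 to 0.11 when 1 library was left out, lowest without replicate 1 at 1.0% Ca. In either direction, 0 members had an unadjusted p under 0.05 by the quasi-likelihood test, against 1034 of the 12187 genes tested. Such a p with the higher value at 1.0% Ca was held by 2.64% of genes. Of all genes tested, 0.0% passed the adjusted threshold. Within lane 2, where 2 birds at 1.0% Ca stood against 3 at 0.8% Ca, 13 of 50 members had the higher mean at 1.0% Ca, against 46.7% of ranked genes. The median log2 difference was -0.05 in the members and -0.02 in the ranked genes, and LECT2 differed by -0.23. The members were chosen for following LECT2 over these birds too, so their counts in this comparison were set in part by the rule. The 3 comparisons share birds, so their values are not independent of each other.

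Markers of other cells were set beside LECT2. A marker could be identified only where the study listed it among the genes it called different between diets. The markers below are therefore a subset chosen on these same birds, not a full set for any cell type. Of 9 names of phagocyte genes 6 were identified (SPI1, Nox2, LY86, CD180, TLR7 and MYO1F), which macrophages and other white blood cells express, and none was a member. Their r with LECT2 lay between -0.0477 and 0.111, and between -0.488 and -0.289 with diet means subtracted. Their summed CPM was 689, 443 and 474 at 0.8% Ca, 352, 284, 501 and 350 at 1.0% Ca, and 270, 730 and 950 at 1.2% Ca. The bird with the highest LECT2, replicate 1 at 1.2% Ca, therefore had the lowest sum of these markers, and none of the 6 was at 0 in any bird. Of 14 names of heterophil genes 4 were identified, which were LECT2 itself, GAL1, GAL2 and SERPINB10. GAL1 and GAL2 had r of 0.976 and 0.987 with LECT2, and SERPINB10 had r of -0.0822. With diet means subtracted, r was 0.956 for GAL1, 0.973 for GAL2 and -0.346 for SERPINB10.

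TSPO2, a gene of red blood cell precursors and the 1 erythroid gene identified of 6, had r of 0.589 and stood at 41.1 CPM in replicate 1 at 1.2% Ca, against 6.16 to 17.6 CPM in the other 9 birds. All 8 genes of cell division were identified, and their r lay between 0.274 and 0.460, or between -0.0687 and 0.160 with diet means subtracted. Of 5 names of plasma proteins made by the liver 2 were identified, TF (transferrin) with r of 0.613 and HPX (hemopexin) with r of -0.487. With diet means subtracted, r was -0.0146 for TF, -0.505 for HPX and 0.259 for TSPO2. IL2RG, the 1 lymphocyte gene identified of 4, had r of 0.0275, and of -0.0408 with diet means subtracted. No gene of the thrombocyte and kidney tubule lists was among the genes that the study named, so the labelled tissue was not checked against its own markers. The part of these cell types in the members' values was not tested.

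The members were spread over the genome. Chromosome 1 held 10 (20.0%, against 13.4% of ranked genes). Chromosomes 2 and 3 held 7 each (14%, against 8.58% and 7.85% of ranked genes), and chromosome 5 held 5 (10%, against 6.24%). Apart from the defensin cluster and the pair near GAD2, the closest neighbours were ENSGALG00000009134 and ENSGALG00000009390 on chromosome 1, 474060 bases apart. ENSGALG00000009390 had 37.1, 41.7 and 39.1 CPM at 0.8% Ca, 45.9, 47.7, 35.1 and 31.0 CPM at 1.0% Ca, and 93.3, 32.4 and 62.2 CPM at 1.2% Ca, and both were chosen for mention by their position. Its r was 0.789 over all birds and 0.558 without replicate 1 at 1.2% Ca. The median exon length was 2231 bases in the members and 2338 bases in the ranked genes.

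The list has no natural edge. The last 5 members, ENSGALG00000008600, ENSGALG00000013107, ENSGALG00000007559, ENSGALG00000016445 and ENSGALG00000014862, had r of 0.758, 0.754, 0.754, 0.753 and 0.752. The first 5 genes outside, ENSGALG00000027973, ENSGALG00000010958, ENSGALG00000009519, ENSGALG00000008407 and ENSGALG00000011492, had r of 0.752, 0.751, 0.747, 0.746 and 0.746. Only 5 ranked genes had r of 0.9 or more, and 26 had an r as far below 0 as the last member's was above it, the lowest being -0.865.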

How the data were processed

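Kidney RNA of 10 broilers was sequenced as read pairs. The authors trimmed the reads with Trimmomatic, used HISAT2 2.0.4 for alignment to Galgal4, and obtained the exonic fragments of every Ensembl gene from featureCounts 1.5.0-p3. The deposited values are raw whole-number counts, without normalization. Per the file headers no strand option was set, so overlapping and antisense genes cannot be told apart. The deposited count table had 0 per-sample columns without a sample.

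CPM on column totals and log2(CPM + 0.5) were computed for 17108 genes, and the members were taken by the rule given above. The members, the gene lists and the rule for the genes named (LECT2, members with a name, the first 10 by r, the genes at both edges of the list, and the 5 with the most fragments and the 5 with the widest range) were chosen with earlier results of these data known. Names came from the study's own tables by identifier or locus, and 2 members had one. The names by locus were those of genes that the study called different between diets. No identifier matched the RefSeq gene table of assembly GRCg7b, and no sequence of a member was used here.

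Counts were fitted in R 4.3.3 with edgeR 4.0.16. After filterByExpr and TMM scaling, 12187 genes were tested over all 10 libraries by the quasi-likelihood test with Benjamini-Hochberg adjustment, two-sided, with Ca as a number (adjusted p under 0.1) or as a group (adjusted p under 0.05), the study's thresholds. The SE given with an edgeR log2 change was derived from the test, as the size of the change divided by the square root of the F statistic. The script was tested on simulated data. Alternatives were limma-voom (limma 3.58.1), DESeq2 1.42.0, edgeR's likelihood ratio test, RLE factors, no filter, a replicate block, lane as a covariate, other offsets, level minima and measures of likeness, and each library left out. Tables were made in Python 3.11.15 with pandas 2.3.3 and NumPy 2.4.6, and figures with Matplotlib 3.10.9. The p-values rest on 1 library per bird, and intervals and floors for single counts were not used.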

Additional observations from a re-analysis of the deposited data

Results flagged for a closer look

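In the group of 4 birds at 1.0% Ca, the bird farthest from the others was compared with Dixon's 95% critical value for 4 samples, for LECT2 and each member on the log2(CPM + 0.5) scale. Chance alone passes about 1 in 20 groups. Of the 51 genes, 3 passed, and of all ranked genes 5.80% did. In all 3 the high bird was replicate 1. For ENSGALG00000023818 the ratio was 0.925, with 89.5 CPM in replicate 1 and 6.08 to 7.51 CPM in the other birds. For ENSGALG00000011280 it was 0.965, with 171 CPM in replicate 1 and 157 to 158 CPM in the others, a small step among nearly equal values. For ENSGALG00000004106 it was 0.843, with 58.9 CPM in replicate 1 and 42.1 to 44.4 CPM in the others. Replicate 1 was also the 1.0% Ca bird with the highest LECT2. The members were chosen for following LECT2, so the shared direction was set in part by the rule. The share of the 51 genes that passed was close to that of all ranked genes. The groups at 0.8% and 1.2% Ca, with 3 birds each, were not examined in this way.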

How the results depend on the processing

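The list depended on the libraries and on the measure of likeness. Of the 50 members, 32 were among the first 50 by Spearman's rho, 12 when diet means were subtracted and 15 when lane means were subtracted. Leaving out 1 library kept 17 (without replicate 1 at 1.2% Ca) to 39 members, and 8 members stayed in all 10 such lists: TGM3, ENSGALG00000022817, ENSGALG00000019843, ENSGALG00000001004, ENSGALG00000011280, ENSGALG00000005953, ENSGALG00000009859 and ENSGALG00000023818. The median within-diet r was between 0.625 and 0.714 without 1 library. The number of members called for the slope was 1 by the likelihood ratio test. It was 0 in the other alternatives run, although DESeq2 gave ENSGALG00000019843 no adjusted p for the slope, and 0 in every alternative for the 3 pairs of diets. The LECT2 slope kept its sign and stayed short of the threshold in each alternative. Its log2 change was lowest with lane as a covariate, at 0.80. Without 1 library it was between 0.97 (without replicate 1 at 1.2% Ca) and 1.73. As alternatives added after seeing the data, the median log2 change of the members was followed too, and with lane as a covariate it was 0.11 for the slope and -0.04 between 1.0% and 0.8% Ca. The replicate numbers gave no sign of pairing the birds. Deviations of birds sharing a number correlated between -0.425 and 0.300 (8 pairs). For birds with different numbers they correlated between -0.370 and 0.486 (25 pairs). With the replicate number as a block 0 members were called and the LECT2 slope was 1.35. The members with an unadjusted p under 0.05 by the quasi-likelihood test were then 8 for the slope and 6 between 1.2% and 0.8% Ca. Depth limits the smallest members, since ENSGALG00000019843 was counted with 6 fragments in 1 library.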
